A study of Mus musculus with 3 samples.

Results

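ISG15 and its conjugation machinery are 5 genes, Isg15, Uba7, Ube2l6, Herc6 and Usp18, chosen by symbol out of 55536 genes in the deposited tables. They were followed in ribosomal RNA-depleted RNA-seq of chromatin-associated RNA, a fraction rich in nascent and nuclear transcripts, from bone marrow-derived macrophages, which are primary cells grown from mouse marrow. The 3 libraries form 1 group: strain C57BL/6J, the Toll-like receptor 4 agonist lipid A, a component of bacterial lipopolysaccharide, at 100 ng/ml for 50 min, sex, age and developmental stage not given. They differ in the labelled starting RNA. Replicate 2 had 250 ng, replicate 3 had 500 ng and replicate 1 had 1000 ng, and the libraries are listed below in this order. All carry 1 donor code, so the spread between them may be technical. Untreated cells were not analysed here, so the values are levels 50 min after lipid A and say nothing of induction.

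ISG15 is a ubiquitin-like protein that interferon-treated and virus-infected cells attach to other proteins, in a chain of reactions called ISGylation. The E1 enzyme UBA7 activates it, the E2 enzyme UBE2L6 carries it, and an E3 ligase (HERC5 in human cells, HERC6 in mouse) passes it to target proteins. USP18 removes it again, and separately binds the interferon receptor subunit IFNAR2 and dampens its signal. The genes are known in macrophages as targets of type I interferon, acting through the transcription factor complex ISGF3, and Isg15 also as a target of IRF3.

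Promoter sequences in the RefSeq table (GRCm38.p6) were at hand for 4 of the 5 genes, that of Usp18 not being among them. The 120 bases before each annotated start site are given. Of the 4 promoters, only the modifier's held exact matches to GAAANNGAA, letters of the interferon-response type found in 8.56% of all promoters. Capitals mark the stretch covered by GAAANNGAA and AANNGAAA matches in Isg15 and the AANNGAAA match on the opposite strand in Uba7.
Isg15: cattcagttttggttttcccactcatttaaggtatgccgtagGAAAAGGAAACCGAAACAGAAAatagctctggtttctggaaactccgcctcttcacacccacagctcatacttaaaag
Uba7: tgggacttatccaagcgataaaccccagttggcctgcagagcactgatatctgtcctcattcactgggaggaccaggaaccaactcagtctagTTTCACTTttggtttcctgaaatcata
Ube2l6: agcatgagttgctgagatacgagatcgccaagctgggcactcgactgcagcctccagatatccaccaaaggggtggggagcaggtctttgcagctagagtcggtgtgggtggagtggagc
Herc6: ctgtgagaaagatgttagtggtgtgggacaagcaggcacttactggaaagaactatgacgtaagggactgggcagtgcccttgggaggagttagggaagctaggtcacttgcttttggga
These lie at chr4:156200819-156200938 on the minus strand (Isg15), and on the plus strand at chr9:107975447-107975566 (Uba7), chr2:84798708-84798827 (Ube2l6) and chr6:57580872-57580991 (Herc6).

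In windows of 250 bases before to 50 bases after the start, searched on both strands, Isg15 held 3 overlapping matches to GAAANNGAA (the interferon-response type, TTCNNTTTC on the other strand). They begin 78, 72 and 66 bases before the start site and read GAAAAGGAA, GAAACCGAA and GAAACAGAA. No match to GAAANNGAA was found in the Uba7, Ube2l6 and Herc6 windows, and 8.56% of 32851 promoters in the table hold at least 1. The shorter AANNGAAA (the IRF core, TTTCNNTT on the other strand), which overlaps the first motif and was added after the sequences had been seen, is held by 23.9% of promoters. It matched Isg15 at 3 places within the same stretch and at 1 more on the opposite strand 128 bases before the start, and Uba7 at 1 place, 27 bases before the start. Isg15 alone of the 4 matched GGNNTTTCC (the NF-kB type, GGAAANNCC on the other strand), 41 bases before the start, against 5.82% of promoters. None of the 4 matched TTCNNNGAA (the STAT type, 8.30% of promoters) or TATAAA (13.6%). Of 31 other interferon-stimulated genes with a promoter in the table, 16 held GAAANNGAA, 25 AANNGAAA, 7 TTCNNNGAA, 4 GGNNTTTCC and 6 TATAAA. Matches are descriptions of letters and no binding was measured.

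The libraries held 17687379, 14806118 and 10496703 expected counts (estimated read counts that need not be whole) in replicates 2, 3 and 1. At least 10 in each library were found for 12167 genes, 9665 of them protein-coding, and for all 5 genes of the system. Protein-coding genes took 16.4%, 20.4% and 22.3% of TPM (abundance per transcript length, scaled to a fixed sum in each library) in replicates 2, 3 and 1. In each pair of libraries, the share of genes with 200 or more counts that differed beyond counting noise was 50.8% to 74.8%. All 9 macrophage markers were detected, from 1.88 TPM (Fcgr1) to 170.2 TPM (Cd14), with summed levels of 551, 679 and 464 TPM in replicates 2, 3 and 1. Of 20 markers of other cell types, 2 were detected (Ccr9 at 1.28 and Xcr1 at 0.28 TPM), 8 were listed at 0 in every library, among them Cd3e, Ncr1 and Ly6g, and the summed level was 2.32, 2.42 and 3.70 TPM. In bulk samples, fewer cells of a type and less RNA per cell cannot be told apart.

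The E1 gene Uba7 had the highest mean level of the 5 genes at 47.5 ± 6.74 TPM, followed by the E3 gene Herc6 at 41.3 ± 21.7, the modifier Isg15 at 20.8 ± 10.6, the E2 gene Ube2l6 at 9.69 ± 5.33 and the protease gene Usp18 at 5.53 ± 2.23 (SD, n = 3 libraries). Each pair of neighbours in this order overlapped in its library values. Uba7 lay above Isg15, Ube2l6 and Usp18 in every library, as did Herc6, and the lowest Isg15 value (9.78 TPM) was above the highest Usp18 value (8.10 TPM). Among detected protein-coding genes, the means stood at percentiles 91.2 (Uba7), 89.7 (Herc6), 80.1 (Isg15), 65.4 (Ube2l6) and 53.0 (Usp18). The median of the 5 means was 20.8 TPM, against 4.87 TPM over the detected protein-coding genes. These levels pool every annotated transcript of a gene, and the order does not hold for protein-coding transcripts alone. The coding transcript Uba7-201 had 3.4, 5.23 and 1.9 TPM in replicates 2, 3 and 1, and Herc6-201 had 5.14, 8.46 and 7.9. Both lay below Isg15, whose only transcript is coding, in every library.

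**Figure D1:**
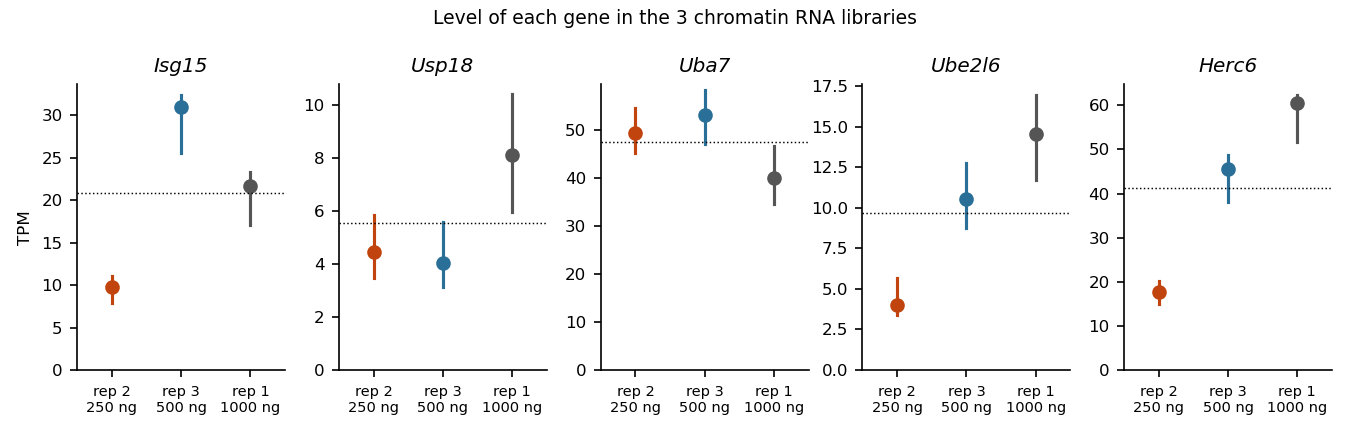
TPM of each gene (y axis, linear, from 0, a scale of its own in each panel) in replicates 2, 3 and 1, with the labelled starting RNA under each. Points are the deposited values, bars the authors' bounds and dotted lines the mean of 3 libraries. Isg15, Ube2l6 and Herc6 were lowest in replicate 2 (9.78, 3.98 and 17.72 TPM), while Uba7 was lowest in replicate 1 (40.04 TPM).

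Isg15, the modifier itself (ENSMUSG00000035692.6), lies on the minus strand of chromosome 4 at 156199424 to 156200818 (GRCm38) and is the shortest of the 5 genes at 1395 bases, with 1 annotated transcript of 2 exons. Its level was 9.78 TPM in replicate 2, 30.96 TPM in replicate 3 and 21.65 TPM in replicate 1. The bounds the authors gave with these values, whose level is not given in the sources used here, were 7.88 to 11.1, 25.5 to 32.4 and 17.1 to 23.3 TPM and did not overlap. They rested on 130, 276 and 158 counts.

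Uba7, the E1 (ENSMUSG00000032596.14), lies on the plus strand of chromosome 9 at 107975505 to 107984060 and has 15 annotated transcripts over 8556 bases. It was the steadiest of the 5 in TPM, with 49.49 in replicate 2, 53.09 in replicate 3 and 40.04 in replicate 1, from 2717, 2071 and 1033 counts. Its end overlaps Gm20661, a gene on the same strand with 15.3, 31.2 and 27.1 counts in replicates 2, 3 and 1, few beside those of Uba7.

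Ube2l6, the E2 (ENSMUSG00000027078.14), lies on the plus strand of chromosome 2 at 84798828 to 84810335, spans 11508 bases and has 4 annotated transcripts. Its level was 3.98 TPM in replicate 2, 10.56 TPM in replicate 3 and 14.53 TPM in replicate 1, from 120, 207 and 198 counts. Replicate 2 stood below the others.

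Herc6, the E3 (ENSMUSG00000029798.11), lies on the plus strand of chromosome 6 at 57581000 to 57664632 and is the longest of the 5 genes at 83633 bases, with 6 annotated transcripts. Its level was 17.72 TPM in replicate 2, 45.58 TPM in replicate 3 and 60.47 TPM in replicate 1, from 1169, 1840 and 2336 counts. It was the highest of the 5 genes in replicate 1 and stood below Uba7 in replicates 2 and 3. It overlaps Gm45193 on the same strand (24.1, 16.5 and 95.7 counts) and the pseudogene Gm19244 on the opposite strand (0, 5 and 13 counts), and the strand setting of the counting was not given.

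Usp18, the ISG15 protease (ENSMUSG00000030107.10), lies on the plus strand of chromosome 6 at 121245906 to 121270917, spans 25012 bases and has 4 annotated transcripts. Its level was 4.47 TPM in replicate 2, 4.03 TPM in replicate 3 and 8.10 TPM in replicate 1, from 100, 74 and 69 counts. It was the lowest of the 5 in replicates 3 and 1. Gm44148, on the opposite strand across its end, had 0, 2 and 0 counts.

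The deposited tables hold a second quantification of the same libraries, and the order of the genes depended on it. There Herc6 averaged 56.5 TPM, Uba7 45.8, Ube2l6 40.4, Isg15 39.1 and Usp18 10.1. Ube2l6 was 4.17-fold, Isg15 1.88-fold, Usp18 1.83-fold and Herc6 1.37-fold higher in the second quantification than in the first, and Uba7 was at 0.964 times its first level. Within the second quantification Isg15 stood at 19.3, 47.4 and 50.7 TPM and Ube2l6 at 23.9, 42.7 and 54.6 TPM in replicates 2, 3 and 1. Replicate 2 was again the lowest for both.

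Because 1 library stands on each side, differences between libraries have no p-value. They are given as log2 folds of TMM-scaled CPM (counts brought to a fixed library size), with a 95% interval of the count ratio that covers counting error only, and are counted as lower or higher from 2-fold on. Each fold is the library with less starting RNA over the one with more. The labelled starting RNA, the sequencing depth and the protein-coding share of TPM differ between the same libraries, and their part in these differences was not tested.

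Isg15 had 7.94 CPM in replicate 2, 19.9 in replicate 3 and 13.2 in replicate 1. Its log2 fold was -1.33 for replicate 2 over 3 (interval -1.64 to -1.02), -0.73 for replicate 2 over 1 (-1.08 to -0.39) and 0.60 for replicate 3 over 1 (0.31 to 0.89). On this scale the modifier's gene was highest in replicate 3, with every interval clear of 0. The fold for replicate 3 over 1 was 0.25 in the second quantification, where TPM was highest in replicate 1. With library totals that fold was 0.31, where the median over all genes was -0.30.

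Ube2l6 had 7.33, 14.9 and 16.5 CPM in replicates 2, 3 and 1. Its log2 fold was -1.03 (-1.37 to -0.70) for replicate 2 over 3 and -1.17 (-1.51 to -0.84) for replicate 2 over 1. Replicate 3 over 1 gave -0.14 (-0.43 to 0.15), an interval that includes 0. In the second quantification the first 2 were -0.68 and -0.75, both under 2-fold.

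Herc6 had 71.1, 132 and 194 CPM in replicates 2, 3 and 1. Its log2 fold was -0.90 (-1.0 to -0.79) for replicate 2 over 3, -1.45 (-1.55 to -1.35) for replicate 2 over 1 and -0.55 (-0.64 to -0.46) for replicate 3 over 1. The fold for replicate 2 over 1 was the largest of the 5 genes on scaled counts over all transcripts, whereas on TPM it was -1.77, against -1.84 for Ube2l6.

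Uba7, unlike these 3 genes, was higher in replicate 2 than in replicate 1, with 165, 149 and 85.9 CPM in replicates 2, 3 and 1. Its log2 fold was 0.94 (0.84 to 1.05) for replicate 2 over 1 and 0.80 (0.69 to 0.91) for replicate 3 over 1. For replicate 2 over 3 it was 0.15 (0.07 to 0.23). On TPM these 3 folds were 0.31, 0.41 and -0.10, where the median over all genes was -0.48, -0.17 and -0.31. In the second quantification the first was 1.02.

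Usp18 had 6.11, 5.36 and 5.78 CPM in replicates 2, 3 and 1, and each of its 3 intervals included 0. The log2 folds were 0.19 (-0.26 to 0.65) for replicate 2 over 3, 0.08 (-0.37 to 0.55) for replicate 2 over 1 and -0.11 (-0.60 to 0.39) for replicate 3 over 1. With 69 to 100 counts a difference of this size was not detectable. In TPM the second of these was -0.84 and the third -0.99, where the median over all genes was -0.48 and -0.17. The direction for replicate 2 over 1 thus turned with the unit. With library totals as the scaling that fold was -0.22, above the median of -0.32 over all genes. In the second quantification replicate 3 over 1 was 0.10.

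**Figure D2:**
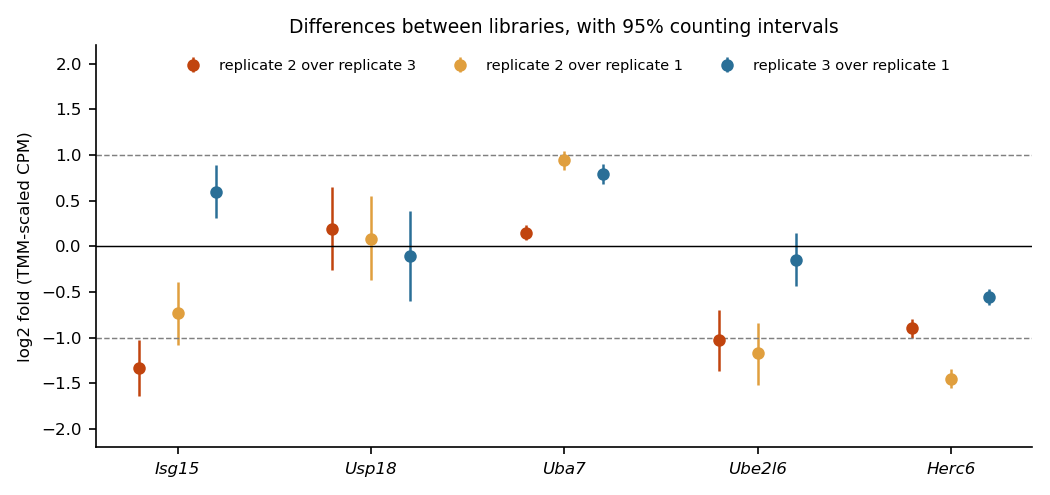
Log2 fold of TMM-scaled CPM (y axis) of each gene for replicate 2 over 3, 2 over 1 and 3 over 1, with 95% counting intervals as bars and dashed lines at 2-fold. Isg15, Ube2l6 and Herc6 lie below 0 in both pairs that have replicate 2 on top, and the Usp18 intervals include 0. Uba7 lies above 0 in all 3 pairs. On TPM its fold for replicate 2 over 3 was -0.10, against a median of -0.31 over all genes.

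For replicate 2 over 3, 2 of the 5 genes (Isg15 and Ube2l6) were at least 2-fold lower, as were 2.63% of 13262 genes with a mean of at least 10 counts, and 0 were at least 2-fold higher, against 2.1%. For replicate 2 over 1, 2 genes (Ube2l6 and Herc6) were at least 2-fold lower against a background of 8.84%, and 0 were higher against 7.83%. Ube2l6 was past 2-fold in neither pair in the second quantification. Isg15 passed 2-fold for replicate 2 over 1 with library totals (-1.03, all-gene median -0.32) and on TPM (-1.14, all-gene median -0.48). For replicate 3 over 1, 0 were lower and 0 higher, against 5.81% in each direction. The median log2 fold of the 5 genes was -0.90, -0.73 and -0.11 in these 3 pairs, against -0.00, -0.02 and -0.01 over the 13262 genes. Replicate 2 was the lowest library for 3 of the 5 genes, replicate 3 for Usp18 and replicate 1 for Uba7, and over all genes these shares were 34.5%, 25.8% and 39.8%. The biological coefficient of variation was 0.321 for Herc6, 0.318 for Isg15, 0.307 for Ube2l6, 0.267 for Uba7 and 0.231 for Usp18, with a median of 0.258 over all genes.

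The counts above pool every annotated transcript of a gene, and these include transcripts that keep an intron. Transcripts of the retained-intron class took 75.0 ± 2.77% of Uba7 TPM, 59.6 ± 9.78% of Herc6, 50.5 ± 15.6% of Usp18 and 18.8 ± 10.3% of Ube2l6 (SD, n = 3). Isg15 has no such transcript. The class holds 10 of the 15 annotated Uba7 transcripts, 4 of 6 for Herc6, 2 of 4 for Usp18 and 1 of 4 for Ube2l6. The part of the annotation in these shares was not tested. Retained introns and RNA not yet spliced cannot be told apart in these tables. The median over 6179 detected protein-coding genes that have a transcript of this class was 41.5%, among which Uba7 stood at percentile 91.2, Herc6 at 76.2, Usp18 at 62.9 and Ube2l6 at 18.9. In the second quantification the median was 42.4% and Usp18 stood at percentile 52.0. By counts, the class held 18.4 of 100, 10.8 of 74 and 29.3 of 69 Usp18 counts in replicates 2, 3 and 1. By library this median was 39.9%, 38.8% and 46.1% in replicates 2, 3 and 1.

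**Figure D3:**
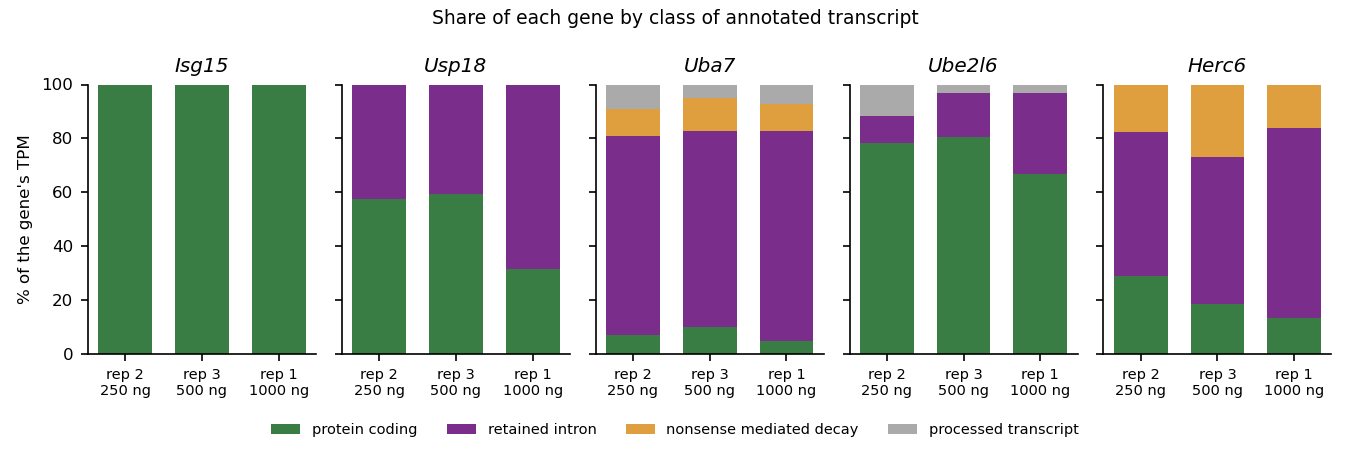
Share of each gene's TPM (y axis, percent) given to protein-coding, retained-intron, nonsense-mediated-decay and other processed transcripts in replicates 2, 3 and 1, in the first quantification. Retained-intron transcripts hold most of Uba7 (75.0% on average) and little of Ube2l6 (18.8%).

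For the E1 gene, the full protein-coding transcript Uba7-201 (24 exons) took 6.87%, 9.85% and 4.75% of TPM in replicates 2, 3 and 1. The largest shares went to Uba7-202 (18.95 ± 2.56%) and Uba7-215 (17.8 ± 3.05%), each a 23-exon transcript of the retained-intron class. In the second quantification Uba7-201 took 6.25%, 8.90% and 0.01%, so its part in replicate 1 was near 0 there. Counting protein-coding transcripts only, the Uba7 log2 fold was -0.29 for replicate 2 over 3, 1.33 for replicate 2 over 1 and 1.61 for replicate 3 over 1, from 258, 266 and 75 counts in replicates 2, 3 and 1.

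For the protease gene, the 11-exon coding transcript Usp18-201 took 44.1%, 59.5% and 22.0% of TPM in replicates 2, 3 and 1. The retained-intron class took 42.5%, 40.5% and 68.5%, the highest share being in replicate 1, where the TPM of the whole gene was also highest. The coding transcripts alone gave log2 folds of 0.12, 0.58 and 0.46 for replicate 2 over 3, 2 over 1 and 3 over 1. For the E2 gene, the coding transcript Ube2l6-201 took 75.1 ± 7.34% in the first quantification and 22.5% in the second. In the second, 43.6% went to the other coding transcript, Ube2l6-202, which had 0 counts in the first.

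On scaled counts, much of the Herc6 difference between libraries was carried by 1 transcript. Herc6-202 is a single-exon transcript of the retained-intron class at 57606511 to 57610888 on chromosome 6. Of its 4378 bases, 297 lie in exons 7, 8 and 9 of the protein-coding Herc6-201 (23 exons) and 4081 in the introns around them. It had 28.7 CPM in replicate 2, 74.4 in replicate 3 and 144.7 in replicate 1, and its log2 fold was -1.38 for replicate 2 over 3, -2.34 for replicate 2 over 1 and -0.96 for replicate 3 over 1. Among 9099 retained-intron transcripts with a mean of at least 10 counts, 3.78% were lower by 2-fold or more for replicate 2 over 3, and 11.5% for replicate 2 over 1.

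Herc6-201 had 36.4, 47.6 and 39.5 CPM in replicates 2, 3 and 1, with log2 folds of -0.39, -0.12 and 0.27 in the same 3 pairs. The coding transcript thus stayed under 2-fold in each pair. The ratio of Herc6-202 to Herc6-201 counts was 0.788, 1.57 and 3.67 in replicates 2, 3 and 1, and 0.903, 1.68 and 3.20 in the second quantification. Without Herc6-202, the log2 folds of the gene on scaled counts were -0.45, -0.22 and 0.23 in the same 3 pairs. Replicate 2 over 1 was thus no longer past 2-fold on this scale. In the second quantification the 3 folds were -0.44, -0.47 and -0.03. This leaving out was chosen after the transcript values had been seen. Herc6-203 (-1.61 and -1.32 for replicate 2 over 3 and 2 over 1) and Herc6-204 (-2.55 and -2.18) were also more than 2-fold lower in replicate 2. They had fewer counts, 17.2, 44.9 and 31.8 for Herc6-203 and 7.24, 37.8 and 25.3 for Herc6-204 in replicates 2, 3 and 1. Herc6-205 (0.07 and -0.03) and Herc6-206 (-0.36 and -0.88) stayed under 2-fold in these 2 pairs. On TPM every annotated Herc6 transcript was lowest in replicate 2, where the all-gene medians were also below 0 (-0.31 and -0.48). Herc6-203 had 3.13, 12.25 and 9.72 TPM in replicates 2, 3 and 1. The difference on TPM thus did not rest on Herc6-202 alone, and folds without it are not given on that scale. A separate transcript, unspliced Herc6 RNA and RNA of Gm45193, which spans this stretch on the same strand, cannot be told apart in these tables.

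**Figure D4:**
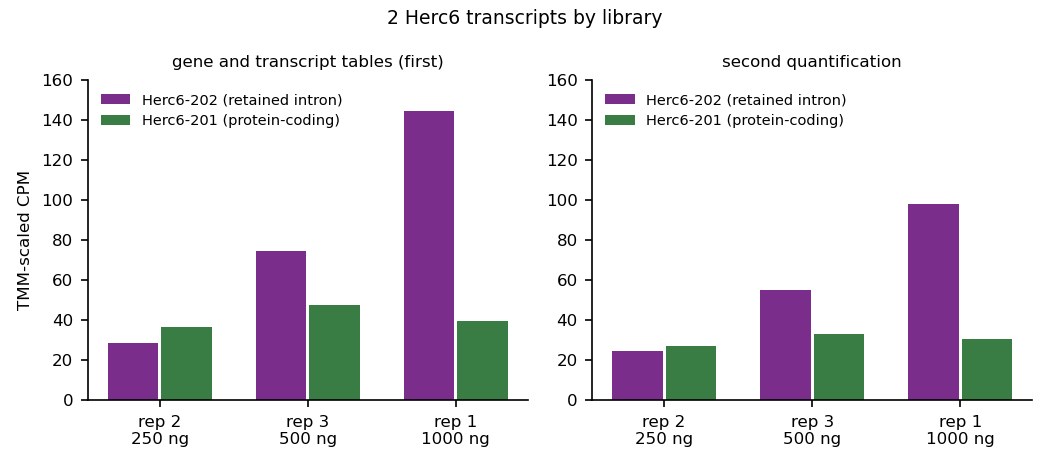
TMM-scaled CPM (y axis, from 0) of the retained-intron transcript Herc6-202 and the protein-coding transcript Herc6-201 in replicates 2, 3 and 1, in each quantification. In the first quantification Herc6-202 is 28.7, 74.4 and 144.7 CPM, whereas Herc6-201 stays between 36.4 and 47.6 CPM.

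The closest relatives of the enzymes, which work with ubiquitin itself or have no part in ISGylation, were each less than 2-fold apart between libraries on the scaled counts. So were most genes, with 2.63% lower and 2.1% higher by 2-fold or more for replicate 2 over 3. These shares were 8.84% and 7.83% for replicate 2 over 1, and 5.81% in each direction for replicate 3 over 1. Ube2l3, the E2 most similar to Ube2l6, had 8.14, 8.0 and 11.81 TPM in replicates 2, 3 and 1 and log2 folds of scaled counts of 0.33, -0.18 and -0.51 for replicate 2 over 3, 2 over 1 and 3 over 1. Uba1, the main ubiquitin E1, had 9.53, 10.65 and 10.48 TPM and log2 folds of 0.32, 0.58 and 0.26. On TPM the first 2 were -0.16 and -0.14, above the medians of -0.31 and -0.48 over all genes. With library totals the third was -0.03, above the median of -0.30. Uba6, an E1 for ubiquitin and FAT10, had 10.59, 18.52 and 14.62 TPM and log2 folds of -0.54, -0.11 and 0.43, the second being 0.01 in the second quantification. Herc3, a small HERC ligase gene of the same family as Herc6, had 2.41, 4.57 and 5.80 TPM and log2 folds of 0.11, 0.56 and 0.44 on scaled counts. On TPM its folds were -0.90, -1.23 and -0.34, where the median over all genes was -0.31, -0.48 and -0.17. Pooled over all annotated transcripts, Uba7 at 47.5 TPM was above Uba1 and Uba6 in each library, and Herc6 was above Herc3 in each.

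Genes around the system were taken as lists, each read against the background shares above. Ranks within a list are those of the first quantification, and ranges those of its scaled counts. Among pathway partners (other ligases, proteases reported to act on ISG15 and the receptor for free ISG15), 10 of 12 were detected and 0 were at least 2-fold apart in any pair. In the second quantification 1 was at least 2-fold higher for replicate 2 over 1, against 6.71% of all genes. Usp16, a deubiquitinase that can also act on ISG15, was the highest at 74.6 ± 9.87 TPM, and Usp13 was listed at 0. Usp24, another deubiquitinase, had the widest range, with log2 folds of 0.35, 0.96 and 0.61 for replicate 2 over 3, 2 over 1 and 3 over 1.

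All 7 genes of the interferon receptor and ISGF3 were detected and 0 were at least 2-fold apart. The kinase gene Jak1 was the highest at 64.4 ± 17.0 TPM and Irf9, the DNA-binding subunit of ISGF3, the lowest at 17.5 ± 2.54. Tyk2, the other receptor kinase gene, had the widest range, with log2 folds of 0.08, 0.68 and 0.60. The first 2 were -0.24 and -0.16 on TPM, where the median over all genes was -0.31 and -0.48.

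All 11 genes for reported ISG15 substrates were detected. For replicate 2 over 3, 2 were lower by 2-fold or more, against 2.63% of all genes. For replicate 2 over 1, 3 were so, against 8.84%. In replicate 3 over 1, 0 were apart, against 5.81% of all genes in each direction. Ifih1, which encodes the RNA sensor MDA5, had both the highest mean (184.8 ± 125 TPM) and the widest range. It had 45.5 TPM in replicate 2, 221 in replicate 3 and 288 in replicate 1, with log2 folds of scaled counts of -1.86, -2.13 and -0.27. The others past 2-fold, named after their values were seen, were Pcna, the replication clamp gene (-1.40 and -1.47), and for replicate 2 over 1 also Ube2n, a ubiquitin E2 gene (-1.13, and -0.83 in the second quantification, where 2 genes in place of 3 were past 2-fold in that pair).

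Of 14 genes for ubiquitin and its relatives, 13 were detected. In replicate 2 over 1, 1 was at least 2-fold lower, against 8.84% of all genes, and 0 were apart in the other pairs. That gene was Nedd8, a modifier of cullins (-0.59, -1.08 and -0.49), and in the second quantification its fold for replicate 2 over 1 was -0.49. Ubd, which encodes FAT10, was listed at 0. All 8 genes of other E1 enzymes were detected with 0 past 2-fold, from Sae1 (a SUMO E1 subunit, 1.66 ± 0.41 TPM) to Atg7 (the autophagy E1, 48.5 ± 9.69 TPM). Atg7 also had the widest range there, with log2 folds of 0.06, 0.94 and 0.88. The first was -0.21 on TPM, where the median over all genes was -0.31. All 7 E2 and HERC paralogs were detected with 0 past 2-fold, from Herc3 (4.26 ± 1.72 TPM) to the giant HERC gene Herc1 (78.2 ± 5.92 TPM), while in the second quantification Ube2e1 was the lowest (9.24 TPM, against 13.5 for Herc3). Ube2e2, a ubiquitin E2 gene, had the widest range there (-0.09, -0.95 and -0.86), and these were 0.11, 0.24 and 0.12 in the second quantification. For replicate 2 over 1, 3 of these 7 paralogs and 1 of the 8 E1 genes were at least 2-fold lower on TPM, where the share of all genes was 21.4%. With library totals 2 paralogs were, where that share was 16.9%.

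Among 40 other interferon-stimulated genes, 39 were detected. In replicate 2 over 3, 8 were at least 2-fold lower and 0 higher, against 2.63% and 2.1% of all genes. In replicate 2 over 1 these counts were 9 and 0, against 8.84% and 7.83%. In replicate 3 over 1 they were 1 and 2, against 5.81% in each direction. Their median log2 fold was -0.26, -0.56 and -0.03 in these pairs, and 28 of the 39 were lowest in replicate 2, 2 in replicate 3 and 9 in replicate 1. Ifit1, an inhibitor of foreign RNA translation, had the widest range, with 5.31, 34.9 and 34.8 TPM in replicates 2, 3 and 1 and log2 folds of -2.38, -2.22 and 0.16. Parp14, an ADP-ribosyltransferase gene, was the highest at 320 ± 141 TPM and Phf11b the lowest at 0.53 ± 0.17. In the second quantification the antiviral gene Rsad2 was the highest (471 TPM, against 325 for Parp14), and Cmpk2 had the largest fold (-2.22 for replicate 2 over 1). Isg15, Ube2l6 and Herc6 thus lay on the same side of 0 as most of the list in both pairs with replicate 2. Uba7 and Usp18 lay above 0 on this scale. On TPM Uba7 was at -0.10 for replicate 2 over 3, above the median of -0.31 over all genes. Usp18 was at -0.84 on TPM for replicate 2 over 1, below the median of -0.48. On TPM, 12 of the 39 listed genes were at least 2-fold lower for replicate 2 over 3, against 6.35% of all genes on that scale, and 22 for replicate 2 over 1, against 21.4%. With library totals the second count was 15, against 16.9%.

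**Figure D5:**
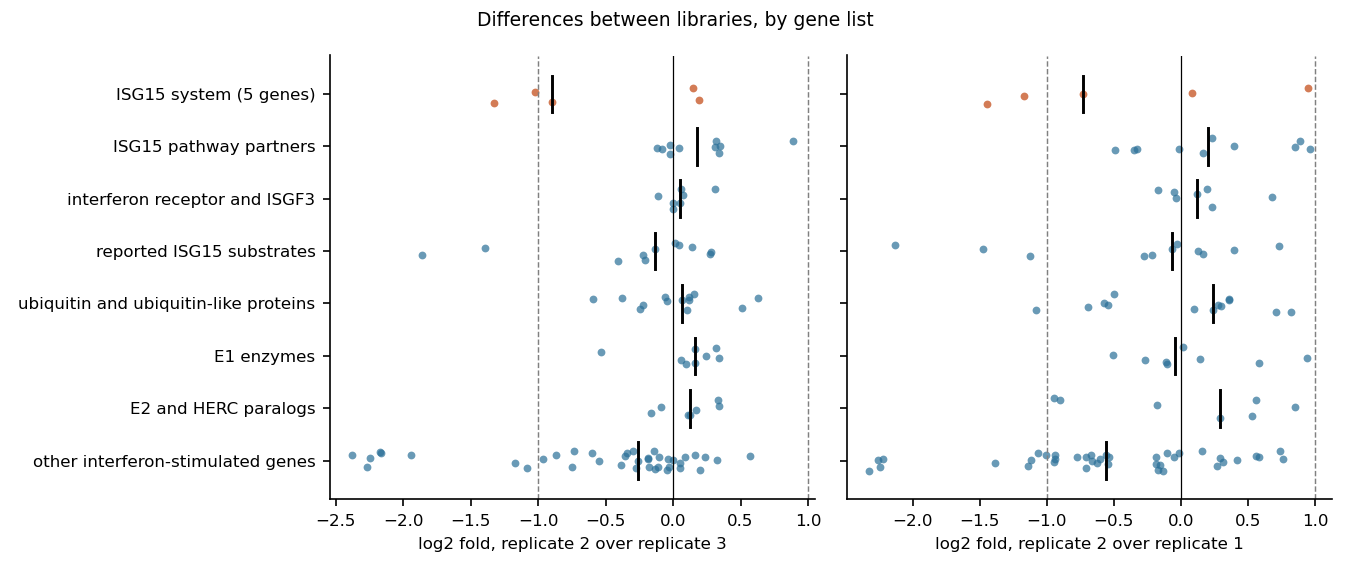
Log2 fold of TMM-scaled CPM (x axis) for replicate 2 over 3 (left) and replicate 2 over 1 (right), each point a gene with a mean of at least 10 counts, black bars the list medians and dashed lines 2-fold. Points below -1 are found among the 5 genes, the reported substrates and the other interferon-stimulated genes in both panels, and 1 ubiquitin-like gene on the right.

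Over the 3 libraries the patterns of Ube2l6 and Herc6 were nearest to each other (Euclidean distance 0.29 between their deviations from the mean log2 CPM), followed by Isg15 and Ube2l6 (0.53), and Uba7 and Herc6 were farthest apart (1.70). These distances pool all transcripts, so the Herc6 pattern includes Herc6-202. Without it the Herc6 log2 folds for replicate 2 over 3, 2 over 1 and 3 over 1 were -0.45, -0.22 and 0.23. Those of Ube2l6 were -1.03, -1.17 and -0.14, so the nearness of this pair depended on that transcript. With 3 points per gene, many genes share a pattern. Of 7479 protein-coding genes with a mean of at least 50 counts, 335 (4.48%) lay within 0.1 of Usp18, nearest Zfp408, Slc8a1 and Eif3l, and 166 (2.22%) within 0.1 of Uba7, nearest Ap2a2, Srf and Fchsd1. Within 0.1 of Ube2l6 lay 8 genes, nearest Nsdhl, Basp1 and Ccl3, and within 0.1 of Herc6 lay 9, nearest Fam129a, Zfp422 and Ccdc15. Of Isg15, 0 genes lay within 0.1, and the nearest were Slc24a1 at 0.10 and Lpar2 and Olfml3 at 0.14 each. The counting intervals of Isg15, Ube2l6 and Usp18 given above are wider than 0.1. Which genes are nearest to these 3, and how many, may thus turn on counting error.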

How the data were processed

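Chromatin RNA of 3 libraries in 1 group was analysed. The deposited gene and transcript tables of the first quantification hold expected counts, TPM and bounds on TPM, and those of the second quantification hold estimated counts and TPM of each transcript, per the file headers. The authors used build mm10 and GENCODE M21, per the deposited notes, and the aligner, quantifier, their versions and the strand setting are not given in the sources used here. Rows naming no mouse gene (0.427%, 0.383% and 1.28% of counts in replicates 2, 3 and 1) were left out. Second-quantification levels are sums over transcripts.

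With expected counts rounded, TMM factors and tagwise dispersion came from edgeR 4.0.16 in R 4.3.3 with an intercept-only design over genes with a mean of at least 10 counts. Folds are of log2 CPM with 0.5 added to each count, with exact (Clopper-Pearson) 95% binomial intervals. The fold step was run on simulated data as a check of the code. The planted changes were larger than 2-fold and lay in genes with a mean of at least 50 counts. This run therefore says nothing of the error of calls at 2-fold or at lower counts. Detected means 10 or more expected counts in every library. No test of a condition was possible with 1 group. Alternatives were library totals, DESeq2 1.42.0 size factors, TPM with 0.1 added, 2 added to each count, the second quantification and leaving out each replicate. Counting protein-coding transcripts only was added after seeing the data.

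The genes and lists were chosen with earlier results of these data known. The text names the 5 genes, the paralogs Ube2l3, Uba1, Uba6 and Herc3, the highest, lowest and widest-ranging gene of each list, and the 3 genes nearest to each of the 5. The levels of some genes under this rule are not reported here. Protein sequences were not analysed here. Intervals cover counting error only, and the tables give no molecular identifiers.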

Additional observations from a re-analysis of the deposited data

How the results depend on the processing

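No paired analysis was possible because the libraries form 1 group. Mean TPM with 1 library left out ranged from 15.7 to 26.3 for Isg15, 4.25 to 6.29 for Usp18, 44.8 to 51.3 for Uba7, 7.27 to 12.5 for Ube2l6 and 31.7 to 53.0 for Herc6. In the second quantification it was 39.1 for Isg15, 10.1 for Usp18 and 40.4 for Ube2l6. There 1 of the 5 genes was at least 2-fold lower for replicate 2 over 3 (Isg15), against 2.5% of all genes. For replicate 2 over 1, 1 was lower (Herc6), against 6.21%, and 1 was higher (Uba7), against 6.71%. Ube2l6 was lost in both pairs. With protein-coding transcripts only, an alternative chosen after seeing the data, 1 was lower for replicate 2 over 1. On that count 1 (Uba7) was higher for replicate 2 over 1 and 1 for replicate 3 over 1. Shares of all genes are not given for this alternative, so its counts have no background to be read against. The cause of these differences between settings was not tested.

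The background shares depended on scaling and filter. With TPM, 6.35% of genes were lower and 1.08% higher for replicate 2 over 3, 21.4% and 2.39% for replicate 2 over 1, and 3.75% were higher for replicate 3 over 1. With library totals, 16.9% were lower and 3.58% higher for replicate 2 over 1, and 12.5% and 2.53% for replicate 3 over 1. Without the filter on low counts, 4.63% were lower and 5.09% higher for replicate 2 over 3. The median log2 fold of all genes was itself -0.31, -0.48 and -0.17 with TPM for replicate 2 over 3, 2 over 1 and 3 over 1, and -0.32 and -0.30 with library totals for the last 2 pairs, so folds on those scales are to be read relative to it. Of 15 folds of the 5 genes (3 pairs each), 15 stayed within their counting interval with DESeq2 size factors and 15 with 2 added to each count, while 13 moved outside it with TPM, 6 with library totals and 4 in the second quantification. The median biological coefficient of variation of the 5 genes was 0.22 without replicate 1 (0.16 over all genes), 0.27 without replicate 2 (0.29) and 0.33 without replicate 3 (0.33). Depth limits Usp18 most, at 69 to 100 counts.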
